A study of Mus musculus with 2 samples.

Results

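Of 19476 cells that passed the filters in 2 libraries of cells from mouse tumours, 468 were taken as non-cycling normoxic epithelial tumour cells, 398 of 9544 in the CEP library and 70 of 9932 in the Vehicle library. The rule worked on raw counts of unique molecular identifiers (UMIs, each counting 1 captured RNA molecule). It kept cells with 10 or more UMIs of the simple-epithelium keratins Krt8 and Krt18 together, with complement C1q genes under 0.1% of their UMIs, and with no UMI of the T cell receptor genes Cd3d, Cd3e and Cd3g. From these 841 CEP and 135 Vehicle keratin-gated cells it removed those with 5 or more UMIs of the proliferation genes Mki67 and Top2a and those with 3 or more UMIs of the hypoxia genes Adm and Car9. The cells that the rule kept are called the selected cells here. The gate with 5 or more Mki67 and Top2a UMIs gave 224 CEP and 26 Vehicle cycling cells, and the hypoxia gate, among cells below the cycling limit, gave 219 and 39 hypoxic cells. These names stand for the gates, since no oxygen or cell-cycle measurement accompanied the cells.

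By the title of the series, CEP is cepharanthine, a plant alkaloid, and the Vehicle library (spelled Vehide in its title) is the control. Each library came from tumours of 5 biological replicates, and its cells had been enriched with an antibody to CD45, the pan-leukocyte surface protein, and magnetic beads to a stated purity over 95%. The tumour model, mouse strain and age, dose and schedule are not given in the sources used here. Since nothing links the cells to single mice, each group is 1 sample, no p-value is given, and every interval covers counting error only.

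The keratins Krt8 and Krt18 build the filament network of simple epithelia, and claudins such as Cldn3 and Cldn4, with Epcam, seal and join epithelial neighbours. Carcinoma cells can carry these genes together with vimentin (Vim), the filament of mesenchymal cells, a mixture known as partial epithelial-mesenchymal transition. Epithelial tumour cells also secrete chemokines under the transcription factor NF-kB, and under interferon-gamma some of them express MHC class II, the molecules that present peptides to CD4 T cells. The study's title concerns suppression of PKC zeta, NF-kB and the DNA repair enzyme PARP1 by cepharanthine.

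The library labelled CEP held more selected cells per filtered cell. They made up 4.17% of its filtered cells (95% Clopper-Pearson interval 3.78% to 4.59%) and 0.705% (0.550% to 0.890%) of those of Vehicle, a ratio of 5.92 (4.58 to 7.74). All keratin-gated cells differed in the same way, and among them the share of selected cells was 47.3% (43.9% to 50.8%) in CEP and 51.9% (43.1% to 60.5%) in Vehicle, which is a ratio of 0.913 (0.706 to 1.19). Both libraries had been enriched for CD45, so these shares depend on how many unlabelled cells came through the beads, and tumour content and carry-over cannot be told apart. Ptprc, which encodes CD45, had a UMI in 17 CEP (4.27%) and 3 Vehicle (4.29%) selected cells, against 78.0% and 80.9% of cells in a T cell gate (2 or more Cd3d, Cd3e and Cd3g UMIs) of the same libraries.

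The depth behind each selected cell was close between the libraries. The median was 22544.5 UMIs and 4732.5 genes per cell in CEP and 23611 UMIs and 4672 genes in Vehicle, and the sums were 9272937 and 1651238 UMIs. The Vehicle sum therefore rests on fewer cells, and single cells weigh more in it. Of the selected cells, 30 in CEP and 6 in Vehicle were among the 8% of barcodes with the highest Scrublet doublet score, and 4 and 1 had a barcode that occurs in both libraries. Both kinds were kept, and the closing section gives the counts of CEP over Vehicle without each.

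The defining epithelial genes were high in the selected cells of both libraries. Levels are given as CPM, the UMIs of a gene per 1000000 UMIs of the summed selected cells. Clu, the secreted chaperone clusterin (Ensembl ENSMUSG00000022037, GRCm38 chr14:65968483-65981547), stood at 1392 CPM (1369 to 1417) in CEP and 1120 CPM (1070 to 1173) in Vehicle. Wfdc2, a secreted protein with whey-acidic-protein domains, stood at 2029 and 1972 CPM, and Id3, an inhibitor of basic helix-loop-helix transcription factors induced by BMP signals, at 1158 and 1226 CPM. Krt8, which the rule used, stood at 2101 and 2031 CPM. Cldn4, a tight-junction claudin (chr5:134945119-134946934), was lower in CEP at 693 CPM (676 to 710) than in Vehicle at 1008 CPM (960 to 1057).

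The 5 markers set the selected cells apart from the leukocytes of the same libraries in unequal degree. Clu had 0 CPM in the T cell gate of both libraries and 1.12 CPM (CEP) and 0.605 CPM (Vehicle) in a neutrophil gate (S100a8 and S100a9 at 1% or more of UMIs), while Cldn4 had at most 0.280 CPM in those gates. Id3 was less exclusive, with 51.0 CPM in Vehicle T cells and 51.8 CPM in CEP neutrophils. With cells thinned to 1500 UMIs, an Id3 UMI was seen in 67.8% of CEP and 65.7% of Vehicle selected cells and in 5.13% and 6.82% of neutrophils. The neutrophil shares cover 935 CEP and 1334 Vehicle cells, since 711 and 742 shallower ones were left out, and no selected cell was. The rule chose these cells on their keratins, so these contrasts describe the gate and carry no test.

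The genes matched the epithelial label, mesenchymal genes were present as well, and no value here tells tumour from normal epithelium. Vim had a UMI in 98.5% of CEP and 88.6% of Vehicle selected cells, at 5984 and 4784 CPM, and the matrix protein fibronectin, Fn1, stood at 2272 and 2433 CPM. The transcription factors Twist1 and Snai1, which repress epithelial genes, were detected at 102 and 91.5 CPM and at 78.1 and 64.2 CPM. The genes with the highest levels among protein-coding genes were S100a6, Lgals1, Fth1 and Eef1a1. Osteopontin, Spp1, at 7067 and 7434 CPM, was also among the 10 highest. Gm42418, listed at 14402 and 15946 CPM, overlaps a ribosomal RNA gene and its value is uncertain.

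Markers of the organ of origin were scarce. Of 29 such genes in the list used here, 3 passed the filter on low levels, a mean of 20 CPM and 100 UMIs, and 14 in CEP and 18 in Vehicle had no UMI. The 3 were Gata3, a transcription factor of mammary, urothelial and other epithelia, at 72.4 and 66.0 CPM, the mesothelin gene Msln at 67.5 and 43.6 CPM, and the milk protein gene Csn3. Endothelial and erythroid markers were near 0, the 8 endothelial genes summing to 9.60 CPM in CEP and 10.9 CPM in Vehicle with 4 of 8 at 0 in each.

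A small set of selected cells had a different make-up, and it carried many of the differences between the libraries. No Vim UMI was found in 6 of the 398 CEP cells (1.51%) and 8 of the 70 Vehicle cells (11.4%), and in no cycling or hypoxic cell. The shallowest of them had 4881 UMIs in CEP and 2945 in Vehicle, at which the mean level of the library's selected cells would give 29.2 and 14.1 Vim UMIs. Of the 8 Vehicle cells, 7 had UMIs of the milk protein genes Csn3 (kappa-casein) or Wfdc18 (a whey-acidic-protein gene), and the same 7 had no Wfdc2 UMI. In CEP the count was 2 of 6 on both measures. No Lgals1 UMI was found in 7 of the 8 Vehicle and 3 of the 6 CEP cells. None of the 14 was among the Scrublet doublets.

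Milk protein genes were nearly confined to these cells in the Vehicle library, and less so in CEP. Csn3 and Wfdc18 together reached 5 UMIs in 7 Vehicle selected cells, all without Vim, and in 4 CEP selected cells, of which 2 had Vim. The Vim-negative cells held 98.9% of the Vehicle UMIs of Csn3 and 100% of those of Wfdc18, of Igfbp5, which binds insulin-like growth factors, and of Apod, a lipid carrier. They held 3.28% of all UMIs of the Vehicle selected cells and 0.836% of those of CEP. A single Vim-negative cell in each library held high Cited1, a transcriptional co-regulator, with 140 UMIs in CEP and 101 in Vehicle. The same cells held 57 and 27 UMIs of the prolactin receptor gene Prlr and 231 and 94 of the keratin gene Krt19. Whether the Vim-negative cells are tumour cells was not tested. These cells fulfil the rule and were kept, and the closing section gives the genes whose 2-fold difference was lost or turned without them.

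**Figure D1:**
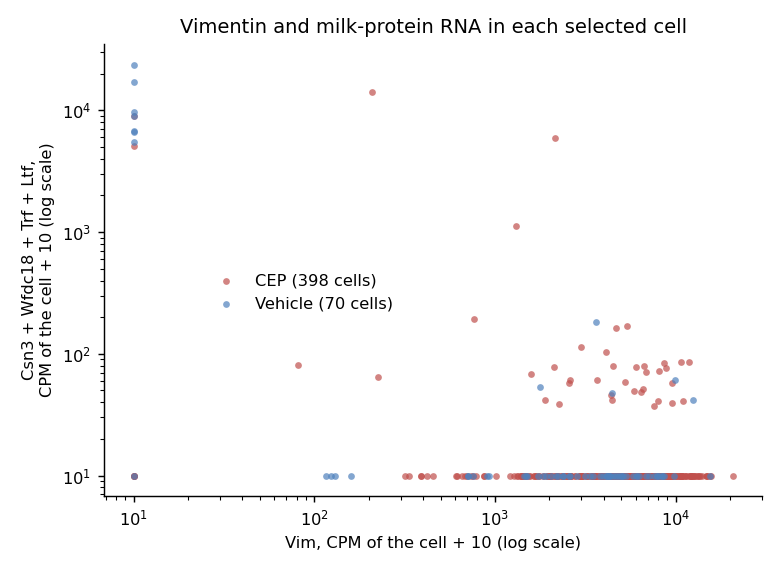
Each point is 1 selected cell, with its Vim level on the x axis and the summed level of Csn3, Wfdc18, Trf and Ltf on the y axis, both as CPM of the cell plus 10 on log scales; red is CEP (398 cells) and blue is Vehicle (70 cells). Most cells lie at the lower right with Vim and no milk-protein RNA, and the cells at the upper left, mostly from Vehicle, have milk-protein RNA and no Vim UMI.

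In the plot of vimentin against milk-protein RNA, the Vehicle cells above 1000 CPM of the 4 genes all sit at 0 Vim, and 3 CEP cells at that height have some Vim.

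The markers differed in how widely they spread among single cells. Krt8, whose evenness the keratin gate partly sets, had quartiles of 1297, 1807 and 2536 CPM of the cell in CEP and 1234, 2164 and 2613 in Vehicle. Wfdc2 was about as even, with quartiles of 1128, 1778 and 2525 in CEP and 1061, 1617 and 2385 in Vehicle, and 4 and 8 cells without a UMI. Clu spread more widely, with quartiles of 422, 962 and 1923 in CEP and 324, 834 and 1272 in Vehicle and a highest cell of 13269 in CEP.

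Cldn4 and Epcam differed between the libraries at each quartile of the cells. The Cldn4 quartiles were 135, 447 and 1147 CPM in CEP and 315, 746 and 1524 in Vehicle. Those of Epcam, an adhesion molecule of simple epithelia, were 196, 544 and 1002 in CEP and 505, 913 and 1708 in Vehicle. All 3 quartiles were lower in CEP for each gene, although the ranges of the cells overlap. Lcn2, which encodes the iron-siderophore binding protein lipocalin 2, had no UMI in 158 CEP and 19 Vehicle cells and a median of 91.2 CPM in CEP and 633 CPM in Vehicle.

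**Figure D2:**
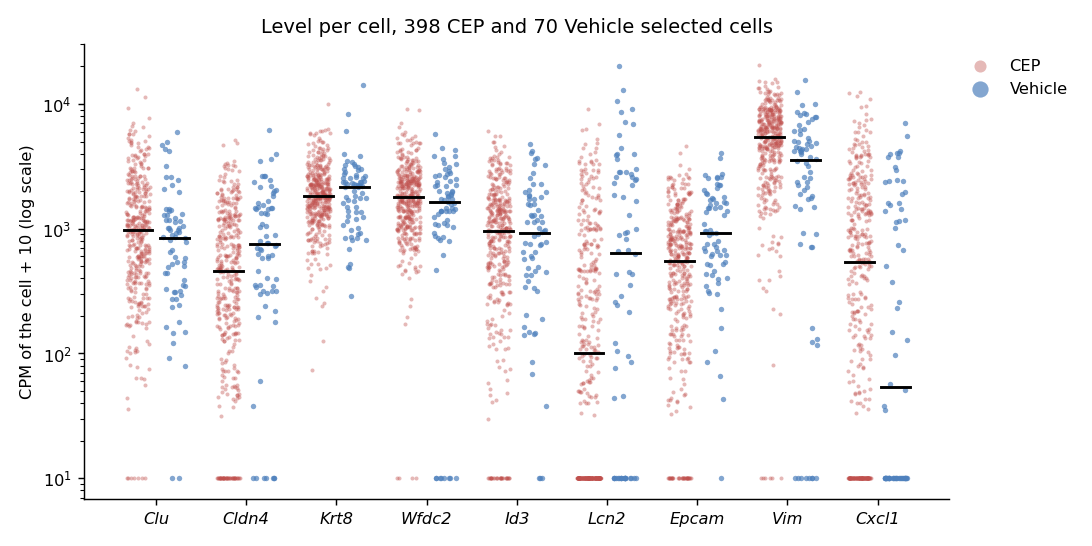
Each point is 1 selected cell, with its level of 9 genes as CPM of the cell plus 10 on a log scale; red is CEP (398 cells), blue is Vehicle (70 cells), the black bar is the median over cells and points at 10 have no UMI. Cldn4, Lcn2 and Epcam have lower medians in CEP, Vim and Cxcl1 have higher ones, and every gene spans a wide range in both libraries.

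The chemokine gene Cxcl1, which attracts neutrophils through the receptor Cxcr2, was present in more CEP cells without a matching difference in sum. The share of selected cells with a UMI was 75.4% in CEP and 54.3% in Vehicle, and with cells thinned to 5000 UMIs 67.7% and 48.5%. The 8 Vehicle cells without Vim all lacked a Cxcl1 UMI and are among the 32 Vehicle cells without one, so they widen this gap. The cell medians were 528 and 43.8 CPM, the upper quartiles 1758 and 1580 CPM, and the sums 1343 and 1238 CPM, a log2 ratio of 0.12 (0.05 to 0.18). In the plot of levels per cell, 32 of the 70 Vehicle cells have no Cxcl1 UMI and the others range from low levels up to 7005 CPM.

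Some genes varied together with the markers from cell to cell. Over 2738 genes in cells thinned to 5000 UMIs (384 CEP and 66 Vehicle cells, with 14 and 4 shallower ones left out), Spearman's rho was computed in each library as a description. Id3 followed a group of early-response and NF-kB genes: Cxcl1 at rho 0.44 in CEP and 0.50 in Vehicle, Junb at 0.40 and 0.43, the NF-kB inhibitor gene Nfkbia at 0.38 and 0.45, Ier3 at 0.35 and 0.52, and Tnfaip3, which also restrains NF-kB, at 0.35 and 0.47. Cldn4 followed Jund (0.40 and 0.42), Jun (0.41 and 0.40), Ddit4 (0.34 and 0.42), Cldn3 (0.42 and 0.33) and Id3 (0.34 and 0.33).

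Clu and Wfdc2 had weaker companions. For Clu they were Sesn3 (0.29 and 0.29), Spp1 (0.26 and 0.36), Nupr1 (0.26 and 0.30), Cldn4 (0.33 and 0.26) and Sox4 (0.26 and 0.25). For Wfdc2 the closest was Ppia, at 0.27 in both libraries, followed by Krt7, Pfn1, S100a6 and Tspo. The cells of a library share their dissociation, capture and sequencing run.

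Cxcl1 and Nfkbia, which varied with Id3, both carry a kappa B motif in their promoter, and the stretches are shown because NF-kB is a subject of the study. The motif searched was GGGA, any 2 bases and TTCC, on both strands in the 250 bases before the gene start of RefSeq (GRCm38.p6). It was present in 397 of 32851 windows (1.21%), in 5 of the 24 NF-kB target genes found in the table and in 2 of 16 genes of the PKC zeta, NF-kB and PARP1 list. The Cxcl1 stretch is chr5:90891124-90891243 on the plus strand and that of Nfkbia chr12:55492648-55492767 on the minus strand, each written in the direction of its gene with the motif, on either strand, in capitals.
Cxcl1: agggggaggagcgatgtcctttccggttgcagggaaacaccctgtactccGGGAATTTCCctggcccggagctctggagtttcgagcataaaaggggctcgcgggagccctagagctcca
Nfkbia: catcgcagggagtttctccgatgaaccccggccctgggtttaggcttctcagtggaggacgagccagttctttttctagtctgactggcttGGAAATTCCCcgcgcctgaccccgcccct
A match describes the letters only.

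Against the other keratin-gated cells the selected cells differed mainly in what the rule had removed, so these contrasts are given as descriptions. Compared with cycling cells, 21 of 3862 genes (0.544%) were at least 2-fold higher in the selected cells of both libraries and 101 (2.62%) at least 2-fold lower. The lower genes were led by mitotic genes such as Ube2c, which marks mitotic proteins for degradation, at 14.1 CPM in selected and 666 CPM in cycling cells of CEP and 5.45 and 1007 CPM in Vehicle. All 22 mitosis genes that passed the filter in this contrast were among them.

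Of 12 secreted and whey-acidic protein genes that passed the filter here, 1 was at least 2-fold higher than in cycling cells, Lcn2. It stood at 554 CPM in selected and 147 CPM in cycling cells of CEP, and at 1403 and 291 CPM in Vehicle. Ceruloplasmin, Cp, a copper-carrying ferroxidase, stood at 209 and 68.9 CPM in CEP and 227 and 78.7 CPM in Vehicle. The matrix protein Thbs1 stood at 115 and 42.2 CPM in CEP and 136 and 37.5 CPM in Vehicle, and Tslp, an epithelial cytokine that acts on dendritic cells, at 86.1 and 35.3 CPM and at 158 and 43.9 CPM. Among the markers, Clu had a log2 ratio over cycling cells of 1.02 in CEP and 0.93 in Vehicle, Id3 of 0.65 and 1.05, and Cldn4 of 0.65 and 0.95. The cycling cells were deeper, with medians of 36448 UMIs in CEP and 40371.5 in Vehicle. With the cells thinned to 5000 UMIs all 21 higher and all 101 lower genes kept their sign in both libraries, and 15 and 94 of them stayed past 2-fold.

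From hypoxic cells the selected cells differed in fewer genes. Of 3842 genes, 3 (0.0781%) were at least 2-fold higher in both libraries and 17 (0.442%) at least 2-fold lower. Of the 17, 8 are in the hypoxia and glycolysis list, and Adm and Car9 are the genes the rule used. The lower genes included Ndrg1, which is induced by hypoxia, at 137 CPM in selected and 596 CPM in hypoxic cells of CEP and 126 and 775 CPM in Vehicle, the mitophagy gene Bnip3 at 105 and 376 CPM and at 89.6 and 282 CPM, and the haem-degrading enzyme Hmox1 at 25.99 and 91.4 CPM and at 18.8 and 175 CPM. The 3 higher genes were the small heat shock protein gene Hspb1, the galectin gene Lgals7 and the interferon-induced chemokine gene Cxcl10. Without the Scrublet doublets, which held 33.3% of the 39 Vehicle hypoxic cells and 7.31% of the 219 CEP ones, 2 of the 17 lower genes passed, Car9 and Hmox1. The Vehicle hypoxic cells stood at 775 CPM of Ndrg1 with those 13 cells and at 166 CPM without them, and the CEP ones at 596 and 598 CPM. With cells thinned to 5000 UMIs, 1 of the 3 higher and 14 of the 17 lower genes stayed past 2-fold.

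Cells next to the hypoxia limit differed little across it, and those next to the cycling limit differed more. The 185 CEP cells with 1 or 2 Adm and Car9 UMIs, inside the rule, had 185 CPM of Ndrg1, and the 90 cells with 3 or 4 UMIs, outside it, had 216 CPM. In Vehicle the values were 112 CPM in 31 cells inside and 164 CPM in 16 cells outside. At the cycling limit, Cenpa, a centromere histone, stood at 237 CPM in the 33 CEP cells with 3 or 4 Mki67 and Top2a UMIs and at 451 CPM in the 14 cells with 5 or 6. At the keratin limit there were 15 CEP and 2 Vehicle cells with 10 to 19 UMIs and 12 and 5 with 5 to 9.

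Between CEP and Vehicle, few genes of the selected cells differed by 2-fold. Of 5775 genes tested, 16 (0.277%) were at least 2-fold higher in CEP and 20 (0.346%) at least 2-fold lower, and the median log2 ratio of all genes, CEP over Vehicle, was 0.00. Lower in CEP were, by size, Apod, Igfbp5, Csn3, Wfdc18, Trf, Ccl5, Cited1, Fxyd3, Ccn2, Rab25, Lcn2 and Crip2, followed by 8 others. Higher were S100a8, S100a9, Wfdc17, Pttg1, Msmp, Fcer1g, Ifitm1, Cenpa, Il24, Uhrf1, Srgn and Tyrobp, followed by Ccl2, Kdm6b, Bmp7 and Spsb1. Few cells decided many of them: 13 of the 16 and 13 of the 20 had more than 50% of their Vehicle UMIs in 3 cells.

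**Figure D3:**
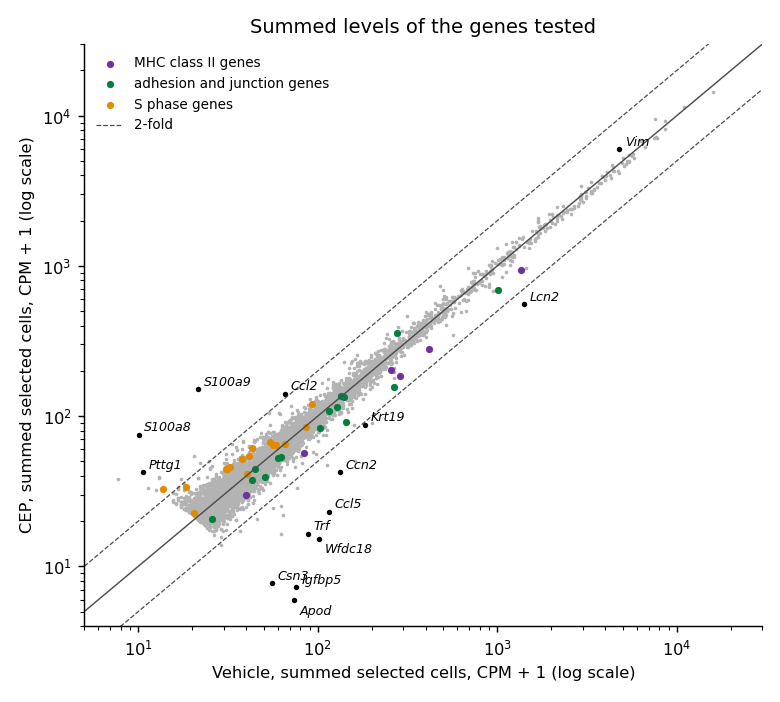
Each point is a gene that passed the filter on low levels, with its summed level in the Vehicle selected cells on the x axis and in the CEP selected cells on the y axis, as CPM plus 1 on log scales; the solid line marks equality and the dashed lines 2-fold. Most genes lie between the dashed lines, the 6 MHC class II genes (purple) lie on the Vehicle side and most S phase genes (orange) on the CEP side.

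In the plot of summed levels the genes outside the 2-fold lines sit mostly at the low end of both axes, and Lcn2 is the 1 far up.

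The genes lowest in CEP relative to Vehicle were the milk-protein group. Igfbp5 stood at 6.25 CPM in CEP and 75.1 CPM in Vehicle, Csn3 at 6.69 and 54.5 CPM, and Wfdc18 at 14.2 and 101 CPM. Trf, which encodes the iron carrier transferrin, stood at 15.4 and 87.2 CPM, with 96.5% of its Vehicle UMIs in Vim-negative cells. These values follow the 8 Vehicle cells without Vim, as given above. Without the Vim-negative cells of both libraries, 10 genes were at least 2-fold lower in CEP. Krt19, a keratin of ductal epithelia, at 86.5 CPM in CEP and 182 CPM in Vehicle, was 1 of those lost, with 58.8 and 68.9 CPM and a log2 ratio of -0.23 without them. Crip2, with 54.5% of its Vehicle UMIs in these cells, moved from -1.33 to -0.35.

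Lcn2 was the highly expressed gene with the widest gap. Its level was 554 CPM (539 to 570) in CEP and 1403 CPM (1347 to 1462) in Vehicle. The log2 ratio was -1.34 (-1.41 to -1.27), and Lcn2 was lower in CEP also among cycling cells (-0.99) and hypoxic cells (-0.69). Lcn2 is a secreted protein that withholds iron from bacteria, and it is a known NF-kB target. Without the Vim-negative cells the log2 ratio in the selected cells was -1.22, and with every cell given the same weight -1.74.

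Epithelial adhesion genes leaned to the Vehicle side. Of 19 epithelial markers that passed the filter, 4 were above and 15 below a log2 ratio of 0, with a median of -0.22, and 2 of them, Krt19 and Rab25, were at least 2-fold lower in CEP. Rab25, a small GTPase of epithelial membrane recycling, stood at 20.9 CPM in CEP and 63.0 CPM in Vehicle. The epithelial list includes Krt8 and Krt18, which the rule used. Of 15 adhesion and junction genes, 13 were below 0, with a median of -0.20 and none past 2-fold. This list shares genes such as Cldn3 with the epithelial markers, so the counts overlap. Cldn3 stood at 155 and 264 CPM (log2 ratio -0.77, -0.93 to -0.61), Cldn7 at 89.8 and 143 CPM, Cldn4 had a log2 ratio of -0.54 (-0.62 to -0.46) and Epcam, at 678 and 947 CPM, of -0.48 (-0.56 to -0.40).

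Among the 2 junction genes above 0 was Ctnnb1, which encodes beta-catenin, a partner of cadherins and also an effector of Wnt signals, at 354 CPM in CEP and 275 CPM in Vehicle. In cycling cells the epithelial median was -0.01 and in hypoxic cells -0.07, while Cldn3 had a log2 ratio of 0.60 in cycling and -0.34 in hypoxic cells. Whether the ratios differ between these classes of cells was not tested. Of 14 mesenchymal genes, 11 were above 0, with a median of 0.17 and none past 2-fold, led by the matrix gene Fbln2 at 224 and 151 CPM and including Vim (log2 ratio 0.32, 0.29 to 0.36).

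All 6 MHC class II genes that passed the filter were lower in the selected cells of CEP, none by 2-fold. Cd74, the invariant chain that guides class II molecules to the endosome, stood at 944 CPM in CEP and 1346 CPM in Vehicle. H2-Aa, an alpha chain, stood at 280 and 413 CPM, and the beta chains H2-Ab1 and H2-Eb1 at 201 and 254 CPM and at 183 and 285 CPM. The peptide-exchange subunits H2-DMa and H2-DMb1 stood at 56.2 and 83.0 CPM and at 29.0 and 38.8 CPM. The list's median log2 ratio was -0.54, with a range from -0.64 (H2-Eb1) to -0.34 (H2-Ab1).

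The same genes lay on the other side in the remaining keratin-gated cells. Summed over the class II list, the selected cells had 1698 CPM (1671 to 1724) in CEP and 2428 CPM (2354 to 2505) in Vehicle. The cycling cells had 1654 and 1151 CPM and the hypoxic cells 1563 and 945 CPM. Within CEP the 3 classes were thus close, and within Vehicle the selected cells were the highest. The list's median log2 ratio was 0.49 in cycling and 0.74 in hypoxic cells, which rest on 26 and 39 Vehicle cells, and the difference between the classes was not tested.

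**Figure D4:**
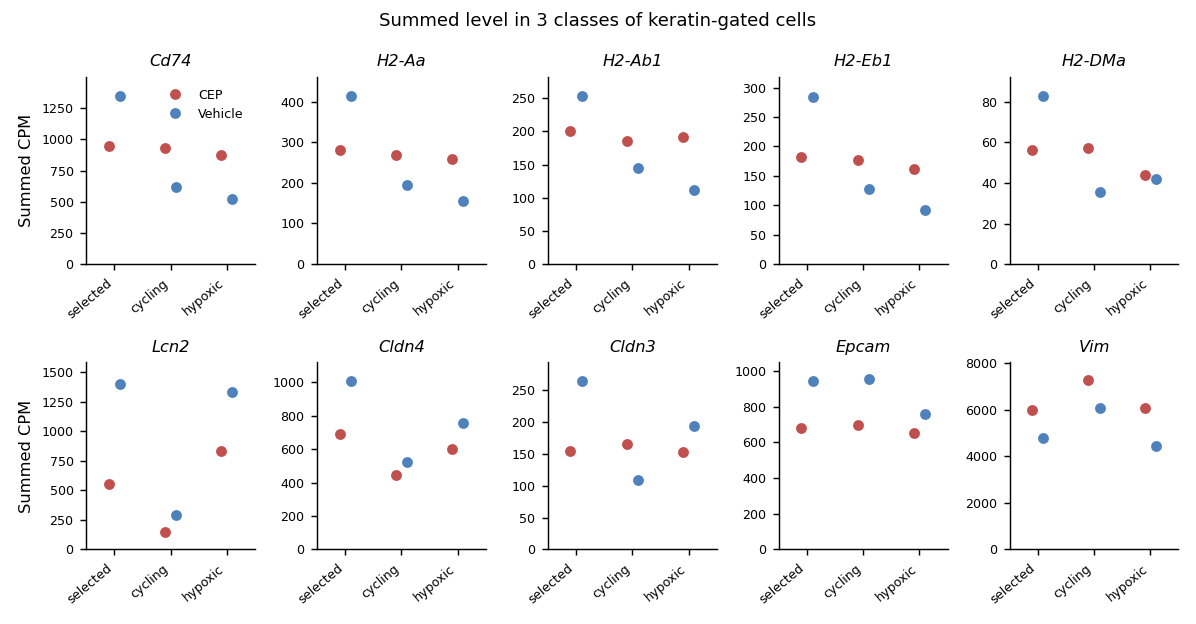
Each panel gives the summed level of 1 gene in CPM, on an axis that starts at 0, for selected, cycling and hypoxic cells of CEP (red) and Vehicle (blue); each dot is the sum over the cells of 1 library and has no replicate. The class II genes of the upper panels are higher in Vehicle only among the selected cells, H2-DMa being nearly level among hypoxic cells, while Lcn2, Cldn4 and Epcam are lower in CEP in all 3 classes and Vim is higher.

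The plot of levels by class shows the crossing for the class II genes, and that Cldn3 crosses in the cycling cells. Per cell, class II RNA was uneven: 153 CEP cells (38.4%, 33.6% to 43.4%) and 30 Vehicle cells (42.9%, 31.1% to 55.3%) had 1000 CPM or more, and 62 CEP cells (15.6%) and 14 of the 70 Vehicle cells had none. The medians were 495 and 694 CPM of the cell, the upper quartiles 1978 and 4269 CPM, and the 90th percentiles 4731 and 6393 CPM. The highest cell, at 31782 CPM, was in CEP. Among cycling cells the share at 1000 CPM or more was 41.5% in CEP and 38.5% in Vehicle, and among hypoxic cells 37.4% and 35.9%.

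Macrophages carry much more class II RNA, with 27748 CPM in CEP and 35837 CPM in Vehicle in a macrophage gate (C1q genes at 0.5% or more of UMIs). The macrophage gene Lyz2 was at 37.9 CPM in CEP and 20.6 CPM in Vehicle selected cells, against 7562 and 7364 CPM in that gate, where Cd74 stood at 14400 and 18507 CPM. Among selected cells with no Lyz2 UMI the log2 ratio of the class II sum was -0.48, among those with no Ptprc UMI -0.62, and with the 5% highest cells of each library left out -0.80, against -0.52 in all. In the same order the cycling cells had 0.66, 0.53 and 0.50, against 0.52 in all. The hypoxic cells had 0.34, 0.45 and 0.59, against 0.73 in all.

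The promoters of H2-Aa and H2-Eb1 are shown because they hold the Y box, the part of the class II promoter that the factor NF-Y binds. The motif searched was CTGATTGG on both strands in the same 250 bases, and 1258 of 32851 windows (3.83%) held it. It was in 2 of the 4 class II genes found in the table and in 7 of 19 class I and peptide-loading genes. The stretches are chr17:34287824-34287943 on the minus strand for H2-Aa and chr17:34305747-34305866 on the plus strand for H2-Eb1 (GRCm38.p6), with the motif in capitals.
H2-Aa: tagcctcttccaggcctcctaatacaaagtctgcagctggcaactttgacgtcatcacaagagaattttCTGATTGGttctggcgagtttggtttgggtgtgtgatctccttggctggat
H2-Eb1: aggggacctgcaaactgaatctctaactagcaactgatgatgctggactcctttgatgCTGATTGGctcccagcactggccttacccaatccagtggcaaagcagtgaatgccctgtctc

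Class I genes lay near 0. The 22 class I and peptide-loading genes had a median log2 ratio of 0.02, 12 above and 10 below 0, with H2-D1 at 3015 and 2928 CPM and B2m, the shared light chain, at 1451 and 1505 CPM. The 20 interferon-gamma response genes had a median of -0.06 with 8 above 0. Cxcl10 had the largest ratio of them, at 104 CPM in CEP and 52.7 CPM in Vehicle, just short of 2-fold. Of 17 type I interferon response genes, 16 were below 0, with a median of -0.19 and none past 2-fold, and Isg15, a ubiquitin-like modifier, stood at 178 and 266 CPM. The counting interval lay below 0 for 3 of the 17, and for 420 of all 5775 genes (7.27%). The median of this list was -0.02 without the Scrublet doublets, 0.25 in cycling cells and -0.27 in hypoxic cells.

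Leukocyte RNA led the genes that were higher in CEP. S100a8 and S100a9, the paired calcium-binding proteins of neutrophils, stood at 74.3 and 9.08 CPM and at 150 and 20.6 CPM, and 5 or more of their UMIs were in 15 CEP cells (3.77%) and 1 Vehicle cell (1.43%). Without these cells S100a9 had a log2 ratio of -0.59. Fcer1g and Tyrobp, signalling adaptors of myeloid cells, stood at 37.96 and 12.1 CPM and at 37.0 and 16.4 CPM, and Srgn, a granule proteoglycan, at 47.9 and 21.2 CPM. Without the Scrublet doublets their log2 ratios were 0.06 for Fcer1g, -0.30 for Tyrobp and -0.50 for Srgn. These 3 are all the pan-leukocyte genes that passed the filter, and their median moved from 1.16 to -0.30. The neutrophil genes rose without the doublets, S100a8 from 2.99 to 3.13 and S100a9 from 2.84 to 3.70. The 4 neutrophil genes that passed the filter had a median of 1.80. It was 3.41 without the doublets and -0.47 with the highest 5% of cells left out per gene. The whole neutrophil list of 10 genes summed to 325 CPM in CEP and 87.2 CPM in Vehicle with none at 0. In the neutrophil gate it summed to 139824 and 146841 CPM.

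The other leukocyte lists held little besides Cd74. The macrophage list, which contains Cd74, summed to 1056 CPM in CEP and 1467 CPM in Vehicle, with 0 and 1 of its 10 genes at 0. The 9 pan-leukocyte genes summed to 170 and 66.0 CPM and the 10 fibroblast and mural genes to 32.6 and 26.7 CPM. The 10 T and NK cell genes summed to 9.71 and 4.84 CPM, with 2 and 6 of them at 0, Cd2 and Cd8a in both. The share of the leukocyte RNA in the differences between the libraries was not tested beyond the values without these cells. Without any cell with a Ptprc UMI, 10 genes were at least 2-fold higher in CEP.

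Genes of DNA replication leaned to the CEP side although cycling cells had been removed. Of 16 S phase genes that passed the filter, 14 were above 0, with a median log2 ratio of 0.37, and Uhrf1, which copies DNA methylation marks, was past 2-fold at 31.5 CPM in CEP and 12.7 CPM in Vehicle. Rrm1, a subunit of ribonucleotide reductase, stood at 32.8 and 17.6 CPM, and the helicase subunit Mcm2 at 44.5 and 31.5 CPM. Pttg1, which guards sister-chromatid separation, stood at 41.3 and 9.69 CPM, with a UMI in 95 CEP and 9 Vehicle cells, and Cenpa at 53.3 and 19.4 CPM.

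The gate left more residual proliferation RNA in CEP. No Mki67 or Top2a UMI was found in 67.8% of its 398 selected cells and in 78.6% of the 70 of Vehicle, and 33 and 3 cells had 3 or 4 such UMIs. In the cycling cells the S phase median was -0.10 and in the hypoxic cells 0.00. A rule scaled to depth, with limits per 10000 UMIs, gave a log2 ratio of 2.29 for Pttg1 and of 2.07 for Cenpa, against 2.05 and 1.44. Without the highest 5% of cells Pttg1 was at 1.86 and Cenpa at 0.99, just short of 2-fold.

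The genes named in the study's title were measured in these cells at low levels. RNA levels do not give the amount or activity of the proteins, so the suppression that the title names was not tested here. Parp1 stood at 52.8 CPM in CEP and 52.7 CPM in Vehicle, a log2 ratio of -0.00 (-0.33 to 0.35). Prkcz, the gene of PKC zeta, had 65 UMIs in CEP and 16 in Vehicle, 7.01 and 9.69 CPM, below the filter, with a log2 ratio of -0.50 (-1.27 to 0.42). A difference of 2-fold in Parp1 lies outside its counting interval, while for Prkcz no difference was detectable at this depth. Nfkb1 stood at 90.3 and 67.2 CPM (log2 ratio 0.42, 0.14 to 0.72), Rela at 65.9 and 54.5 CPM (0.27, -0.05 to 0.61) and Relb at 33.2 and 23.01 CPM (0.51, 0.04 to 1.06).

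By RNA level, most of the axis lay on the CEP side by small amounts. Of 13 of its genes that passed the filter, 12 were above 0, with a median of 0.23 and none past 2-fold. Nfkbia, the inhibitor that NF-kB itself induces, stood at 1314 and 999 CPM (0.40, 0.32 to 0.47), and Sqstm1, an autophagy receptor that scaffolds atypical PKC, at 1075 and 929 CPM. The median of the same list was 0.29 in cycling and 0.21 in hypoxic cells. With cells thinned to 5000 UMIs Nfkb1 had a log2 ratio of -0.11, so its direction depended on that step. The same thinning took Rela to 1.16.

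NF-kB target genes went both ways. Of 25 that passed the filter, 17 were above and 8 below 0, with a median of 0.14. Ccl2, which attracts monocytes, was the 1 past 2-fold upward, at 140 and 64.8 CPM (1.11, 0.83 to 1.41), and Lcn2 and Ccl5 were the 2 past 2-fold downward. Ccl2 had a UMI in 9 Vehicle cells, and 3 cells held 63.6% of its Vehicle UMIs and 3 held 36.3% of its CEP UMIs. Ccl5 stood at 22.1 and 114 CPM, but 2 Vehicle cells held all of its Vehicle UMIs. The granulocyte growth factor gene Csf3 stood at 351 and 243 CPM (0.53, and 1.07 with cells thinned to 5000 UMIs), the prostaglandin synthase gene Ptgs2 at 208 and 149 CPM, Cxcl2 at 256 and 197 CPM and Tnf at 20.6 and 32.1 CPM.

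Stress genes also lay mostly above 0. Of 30 immediate early and heat shock genes, 25 were above 0, with a median of 0.13, and Fos stood at 2086 and 1685 CPM. The small heat shock gene Hspb1 was the 1 past 2-fold, lower in CEP at 89.6 CPM against 200 CPM, with 41.2% of its Vehicle UMIs in Vim-negative cells. Without those cells Hspb1 had a log2 ratio of -0.63, short of 2-fold. Of 22 genes of the integrated stress and unfolded protein response, 19 were above 0, with a median of 0.13, among them Nupr1, a stress-induced chromatin protein, at 972 and 689 CPM and Manf, a secreted endoplasmic reticulum protein, at 305 and 233 CPM.

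Genes tied to the release and display of dying cells hardly differed. The title of the study names immunogenic cell death, in which calreticulin reaches the surface and HMGB1 is released. These steps are not RNA levels. The 12 damage signal and phagocytosis ligand genes had a median of 0.03, with Calr at 225 and 200 CPM, Hmgb1 at 460 and 397 CPM and Anxa1, a secreted phospholipid-binding protein, at 761 and 893 CPM. The 17 cell death genes had a median of -0.05 and the 14 p53 targets of -0.15, with none past 2-fold in these 3 lists.

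Single genes stood out in other lists. In the BMP, TGF-beta and Id list (19 genes, median 0.19) Bmp7, a BMP ligand, was past 2-fold at 32.7 and 15.8 CPM. Its log2 ratio was 1.03, and 0.99 without the Vim-negative cells, and 3 cells held 50% of its Vehicle UMIs. Among growth factor genes (18, median 0.05) the EGF receptor ligand Hbegf stood at 463 and 312 CPM. Among Wnt, Notch and YAP targets (13, median 0.04) the matricellular gene Ccn2 was past 2-fold in the other direction at 41.3 and 133 CPM, with 69.0% of its Vehicle UMIs in 3 cells.

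**Figure D5:**
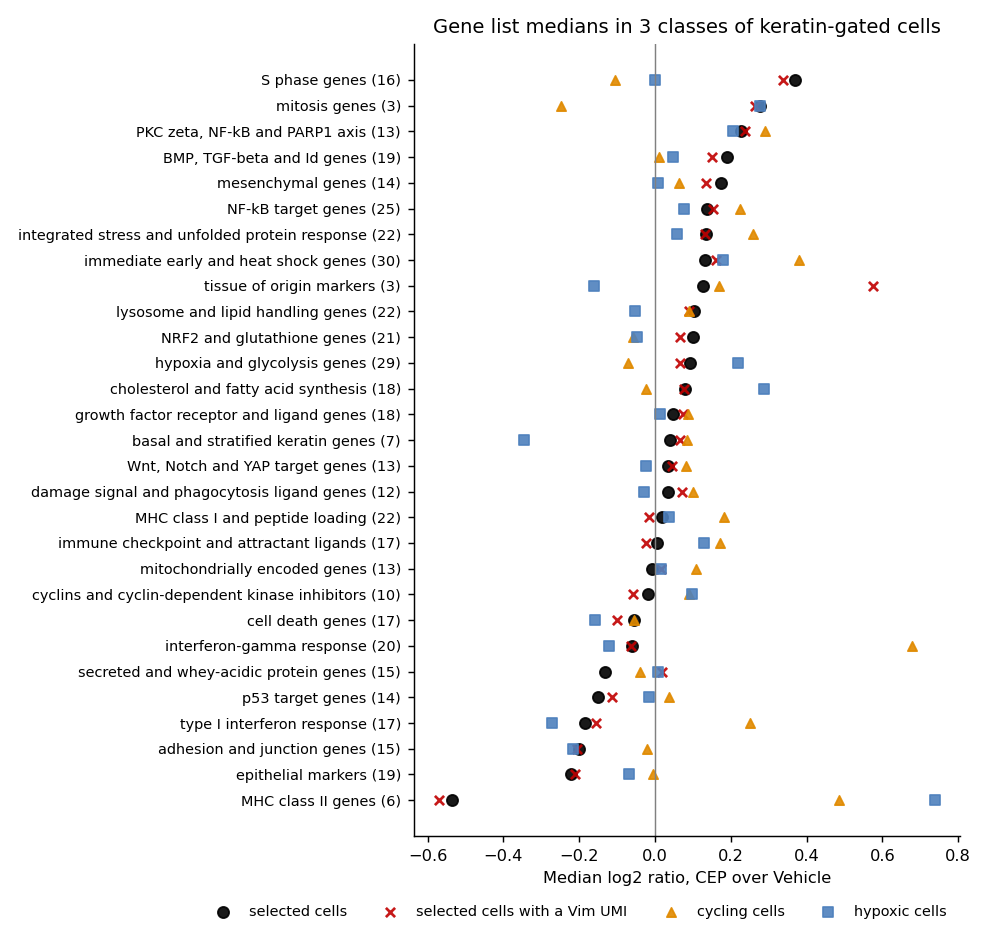
For each gene list (number of genes passing the filter in brackets) the x axis gives the median log2 ratio, CEP over Vehicle, in selected cells (black circles), selected cells with a Vim UMI (red crosses), cycling cells (triangles) and hypoxic cells (squares); the vertical line marks equal levels. The leukocyte marker lists are not plotted. Among the lists plotted, in selected cells, S phase genes are highest at 0.37 and MHC class II genes lowest at -0.54, and the class II list lies on the opposite side in the other 2 classes.

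The plot of list medians shows most lists close to the all-gene median of 0.00 in the selected cells. Leaving out the Vim-negative cells moved the secreted and whey-acidic protein list from -0.13 to 0.02. It moved the 3 genes of the tissue of origin list most.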

How the data were processed

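Single-cell RNA was measured with a droplet 3' assay in 1 CEP and 1 Vehicle library. The deposited files hold UMI counts per gene and barcode (unit: counts, not normalized), made with Cell Ranger 7.1.0 per the file headers; the submitters' processing notes name Cell Ranger 5.0.1 and mm10. Barcodes under 200 genes or over 15% mitochondrial UMIs were left out, which removed 77 of 9621 CEP and 57 of 9989 Vehicle barcodes. The files total 88721774 and 81208647 UMIs.

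The counts of the selected cells were summed per library and divided by their total. Log2 ratios had 0.5 UMI added to each sum, and genes needed a mean of 20 CPM and 100 UMIs. With 1 library per group and cells that are not replicates, no test was run, and a gene was counted as higher or lower past 2-fold. Intervals are exact Poisson, conditional binomial or Clopper-Pearson (95%) and cover counting error only, and the spread between animals is not known. Doublets were scored with Scrublet (scanpy 1.11.5). Its automatic threshold marked 1 barcode in each library, so the top 8% of scores were removed as an alternative. Other tools were Python 3.11.15, numpy 2.4.6, scipy 1.17.1, pandas 2.3.3 and matplotlib 3.10.9. The ratios and intervals were tested on simulated data. These were Poisson draws of each library's sum, the model that the intervals assume. The simulation therefore does not cover genes whose UMIs lie mostly in a few cells.

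The members, the gene lists and the tests were chosen with earlier results of these data known. Genes were named by rule: the 5 markers, the 12 largest log2 ratios in each direction, the most abundant and 2-fold members of each list, the 8 largest differences from cycling and hypoxic cells, the 5 closest companions of 4 markers and the 10 highest genes. Others, named to show a range or a role, were chosen after their values were seen. Genes with near-identical copies, such as Hspa1a and Hspa1b or H2-Q6 and H2-Q7, are uncertain. Promoters are from RefSeq GRCm38.p6, and the coordinates of whole genes are from the GENCODE annotation of GRCm38.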

Additional observations from a re-analysis of the deposited data

Results flagged for a closer look

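For 2 genes the ratio of CEP to Vehicle had opposite signs in different classes of keratin-gated cells, each past 2-fold. Msmp, a small secreted protein gene, had a log2 ratio of 1.63 in the selected cells (38.5 CPM in CEP and 12.1 CPM in Vehicle) and of -3.42 in the hypoxic cells (22.1 and 237 CPM). In the selected cells Msmp had a UMI in 29 CEP and 6 Vehicle cells. Its ratio there was -1.88 with gates per 10000 UMIs and -0.64 with the highest cells left out. The opposite signs of Msmp therefore depended on few cells and on the processing. Hspb1 had a log2 ratio of -1.16 in the selected cells (89.6 and 200 CPM) and of 2.59 in the cycling cells (46.6 and 7.32 CPM). The low Vehicle level in cycling cells rests on 26 cells. Without the Vim-negative cells Hspb1 was at -0.63 in the selected cells, short of 2-fold. The difference was not tested for either gene, since each class has 1 library per group.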

How the results depend on the processing

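With 1 library per group no replicate could be left out. No paired analysis was possible because each group has 1 library. The counts of genes at least 2-fold higher (16) and lower (20) in CEP changed most under 3 alternatives: with a filter of 20 UMIs and no CPM minimum they were 322 and 223, with cells thinned to 5000 UMIs 154 and 84, and with a limit of 1.5-fold 85 and 68. Without cells with a Ptprc UMI 10 were higher, without Vim-negative cells 10 were lower, and with each cell's CPM averaged 46 were lower. Without the Scrublet doublets 2 genes were lower than in hypoxic cells, against 17. Without the Scrublet doublets 11 were higher and 22 lower in CEP, and without barcodes found in both libraries 15 and 20. Every other alternative tried kept its count within 1.5 times, and the log2 ratio of the share of selected cells stayed between 2.55 and 2.72. The alternatives on Vim, S100a8 and S100a9, shared barcodes, the highest cells and the other keratin-gated classes were chosen after seeing the data.

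Among the named genes, 503 values stayed within counting error, 112 moved and 15 turned in sign. S100a9 was at -0.59 without the cells rich in S100a8 and S100a9 and at -0.14 without the highest 5% of cells. Msmp was at -1.88 with gates per 10000 UMIs and -0.64 without the highest 5%. Ifitm1 was at -0.17 without cells with a Ptprc UMI and -0.55 without those rich in S100a8 and S100a9, Srgn at -0.50 without doublets and -0.16 without the highest 5%, and Tyrobp at -0.30 without doublets. Without Vim-negative cells Apod was at 3.98, Igfbp5 at 3.41, Csn3 at 2.37, Wfdc18 at 4.91 and Trf at 1.98, where their Vehicle sums are at or near 0 and the value depends on the 0.5 UMI added. Ptn was at 1.38 without them, and Crip2, Hspb1 and Krt19 fell short of 2-fold. Of the genes higher in CEP, Bmp7 (0.99) and Spsb1 (0.96) fell just short of 2-fold without the Vim-negative cells. Ccl5 was at 6.11 without doublets for the same reason. List medians ranged from -0.65 to -0.34 for MHC class II genes, -0.48 to -0.20 for epithelial markers, 0.31 to 0.58 for S phase genes and 0.13 to 0.28 for the PKC zeta, NF-kB and PARP1 axis. The 70 Vehicle cells limit the precision of every ratio.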

Other observations

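Metabolic gene lists of the selected cells differed little between the libraries. Of 21 NRF2 and glutathione genes, 16 had a log2 ratio, CEP over Vehicle, above 0, with a median of 0.10 and none past 2-fold. Fth1, the heavy chain of the iron store ferritin, stood at 9565 CPM in CEP and 7559 CPM in Vehicle, so the iron store gene and the iron-siderophore binding gene Lcn2 lay on opposite sides. The 22 lysosome and lipid handling genes had a median of 0.10, and the 29 hypoxia and glycolysis genes of 0.09, the latter with 18 above 0. The 13 mitochondrially encoded genes had a median of -0.01. The 17 immune checkpoint and attractant ligands, a list that shares Ccl2 and Ccl5 with the NF-kB targets, had a median of 0.00, with 1 past 2-fold in each direction.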
